A study of Mus musculus with 6 samples.

Results

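The measurements concern 300 probes of a mouse oligonucleotide array, out of 42006 in all, that carried oocyte signal but no reference signal above background. Each array was hybridised with oocyte RNA labelled with the dye Cy3 and a common reference RNA labelled with Cy5. A probe was chosen by its readout: the scanner software had to mark it well above background in Cy3, and not in Cy5, on all 6 arrays. In total 428 probes met that condition, and the 300 with the highest mean log2 Cy3 processed intensity over the 6 arrays were kept. They are called Cy3-only probes here. By comparison, 20457 probes were well above background in Cy3 on all 6 arrays, and 19308 of these were so in Cy5 as well on every array. A further 7221 probes were above background in neither channel on any array, and 1688 were above it in Cy5 on all arrays and in Cy3 on none.

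Fully grown mouse oocytes are classed by how their chromatin sits around the nucleolus. In SN (surrounded nucleolus) oocytes compact chromatin rings it and transcription is largely silent, whereas NSN (non-surrounded nucleolus) oocytes have open chromatin and still transcribe. Growing oocytes store messenger RNA for use in meiosis and the early embryo, and many of these transcripts are made in few other cells, so that a reference made of cultured cells can lack them.

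The study measured 3 groups of 2 pools each. The group titled oocyte held 10 oocytes per pool and was hybridised on slides 1 and 2, at array position 4 of each. Both SN pools held 50 oocytes and the NSN pools held 41 and 44, and these 4 arrays share slide 3. Per the labels' protocols, antral oocytes were taken from wild-type and Mater tm/tm mice aged 39 weeks and were sorted as SN or NSN with the DNA dye Hoechst33342, without a statement of which pools came from which genotype. Mater is a maternal protein needed for development of the early embryo. All pools went through 2 rounds of linear amplification. For the reference, RNA of 11 mouse cell lines was combined and then mixed 2 to 1 with RNA of 129 embryonic stem cells. One of the cell lines of the pool came from testis, a tissue that also holds germ cells. The titles, which call every pool oocytes, were followed, although the characteristics of all 6 pools list the cell type as embryonic stem cells and the stage as embryo. Whether the 2 pools of a group are from separate animals is not said in the labels. The p-values therefore set a difference against a spread between pools, estimated over the groups in the fit, and that spread may be technical. Group and slide cannot be told apart in any comparison with the oocyte group, which also differed in the number of oocytes pooled.

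The files name probes by array identifiers alone, and 0 of the 42006 carry a gene name or a mapped position. The identity of the cells could therefore not be checked against marker genes, and the results are about probes, several of which may belong to one gene. The sequences below stand in for names. The 10 Cy3-only probes of highest mean Cy3 intensity are shown first, from the brightest down, because they define the upper end of the set:
Z00018699-1: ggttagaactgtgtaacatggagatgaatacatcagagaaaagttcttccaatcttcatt
Z00076627-1: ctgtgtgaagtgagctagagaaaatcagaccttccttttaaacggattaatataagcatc
Z00008446-1: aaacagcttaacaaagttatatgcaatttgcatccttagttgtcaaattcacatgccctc
Z00027462-1: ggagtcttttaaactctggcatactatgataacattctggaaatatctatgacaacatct
Z00076982-1: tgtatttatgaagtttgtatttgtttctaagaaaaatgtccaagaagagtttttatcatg
Z00073411-1: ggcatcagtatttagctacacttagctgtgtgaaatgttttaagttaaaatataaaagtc
Z00023572-1: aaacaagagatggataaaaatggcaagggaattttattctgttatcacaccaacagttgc
Z00029837-1: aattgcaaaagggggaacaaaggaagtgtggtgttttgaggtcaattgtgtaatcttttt
Z00031470-1: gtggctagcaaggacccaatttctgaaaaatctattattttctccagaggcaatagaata
Z00024831-1: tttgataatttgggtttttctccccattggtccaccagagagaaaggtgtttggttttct

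The probes of the largest differences between groups are shown next. Z00063167-1 and Z00059346-1 were the most strongly raised in SN and NSN against the oocyte group, and Z00075871-1 and Z00029123-1 the most strongly lowered. Z00030186-1 and Z00044932-1 had the largest positive differences between NSN and SN among probes whose arrays did not overlap, and Z00062680-1 and Z00025475-1 the largest negative ones. Capitals mark the hexamer AATAAA, the commonest poly(A) signal, near which a transcript is cut and polyadenylated; for a probe that holds it, only 30 bases are given.
Z00063167-1: gtctaagccaggtggtttgtaaatAATAAA
Z00059346-1: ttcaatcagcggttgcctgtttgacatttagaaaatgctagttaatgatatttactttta
Z00075871-1: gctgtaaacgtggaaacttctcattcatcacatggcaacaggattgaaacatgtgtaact
Z00029123-1: gtaatattctcttaaaagcttggaAATAAA
Z00030186-1: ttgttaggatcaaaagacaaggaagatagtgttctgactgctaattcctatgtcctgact
Z00044932-1: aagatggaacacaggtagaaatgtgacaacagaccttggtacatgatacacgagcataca
Z00062680-1: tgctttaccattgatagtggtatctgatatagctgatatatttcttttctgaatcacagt
Z00025475-1: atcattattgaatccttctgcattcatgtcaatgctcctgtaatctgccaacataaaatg

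The Cy3-only probes were rich in A and T. Their median G+C content was 38.3%, with the middle 50% of probes between 35% and 42.1%, against 43.3% over all probes and 45% over the 19308 probes with signal in both channels. The probes above background in neither channel had a median of 41.7%. A G+C content below 35% was found in 41 Cy3-only probes (13.7%) in 6.44% of all probes and in 11.6% of those above background in neither channel. The 100 brightest Cy3-only probes had a median of 35.8% and the 100 dimmest one of 38.3%. The 128 probes that met the detection condition but fell below the 300 had a median of 41.7%, that of the probes seen in neither channel. Of the 10 brightest, Z00076982-1 was the lowest at 25% and Z00024831-1 the highest at 40%. These are descriptions of probe sequences, and whether base composition bears on the absence of Cy5 signal was not tested.

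Poly(A) signal hexamers were found in a larger share of these probes than of all probes. On the strand of the probe as deposited, AATAAA occurred in 35 of the 300 (11.7%), in 6.93% of all probes and in 8.72% of the 19308 with both signals. ATTAAA, the next most used signal, occurred in 19 (6.33%), against 3.2% and 3.63%. The 128 probes that met the same detection condition but fell below the 300 went the other way, with AATAAA in 3.91% and ATTAAA in 1.56%. Both motifs are made of A and T alone, as are their reverse complements. TTTATT, the reverse complement of AATAAA, was present in 5% of Cy3-only probes and 3.36% of all probes, and TTTAAT, that of ATTAAA, in 3% and 2.3%. Each motif was counted on its own, so a probe may hold more than one. Within the 35 probes with AATAAA, the hexamer began at a median of base 41 of 60, counted from the 5′ end, and at 65.7% of them it lay after base 30; over all 2911 probes with the hexamer the share was 77.5%. A reading frame without a stop codon over the length of the probe was found on the probe's strand in 228 of the 300 (76%) and in 83.5% of all probes. On the reverse strand the shares were 73.7% and 79.4%, so the lower share was not limited to the probe's strand.

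One Cy3-only probe of 300 matched a RefSeq promoter window, which covers 250 bases before to 50 after a gene's start, over its whole length; 267 of all 42006 probes matched one. It is shown because it is the only one that could be placed in the genome:
Z00066401-1: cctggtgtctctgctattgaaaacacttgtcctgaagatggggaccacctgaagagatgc
It lies at chr14:21741632-21741691 of GRCm38.p6, with its far end 193 bases upstream of a start site of Dusp13, a dual-specificity protein phosphatase gene on the minus strand, and its sequence reads along the opposite strand. Its log2 Cy3 intensity was 7.83 and 6.77 in the oocyte pools, 8.86 and 9.15 in SN, and 9.34 and 9.26 in NSN. Both oocyte pools were thus below all 4 others.

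A few Cy3-only probes overlapped other probes of the array in sequence. A stretch of at least 20 identical bases was shared by 10 of the 300 with another probe, in 8 pairs. In 2 of these pairs both probes were Cy3-only, and of the 6 partners outside the set 3 were above background in Cy5 on at least 1 array. The following pairs are shown because a partner that reads overlapping sequence had Cy5 signal; capitals mark the shared stretch, of 38 bases in the first pair and 34 in the other.
Z00065115-1: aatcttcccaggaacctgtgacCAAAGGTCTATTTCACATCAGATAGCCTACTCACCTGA
Z00010188-1: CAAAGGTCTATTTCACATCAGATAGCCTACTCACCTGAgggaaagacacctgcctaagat
Z00060087-1: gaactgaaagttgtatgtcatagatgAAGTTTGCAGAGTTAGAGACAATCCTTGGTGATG
Z00071757-1: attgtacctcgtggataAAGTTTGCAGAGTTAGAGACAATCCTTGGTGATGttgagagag

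In the first pair the partner, Z00010188-1, was above background in Cy5 on 5 of the 6 arrays, with a median Cy5 intensity of 28.6 over the local background, against 9.09 for the Cy3-only probe. The step from one to the other was small. In the other pair the partner, Z00071757-1, was above background in Cy5 on all 6 arrays, with a median of 387 against 12.4. Here a stretch shared over 34 bases went with a clear Cy5 signal on one probe and none well above background on the other. Another pair with a Cy5-positive partner, Z00024302-1 and Z00046776-1, shared 43 bases, and the partner's Cy5 was above background on 3 arrays with a median of 23.8 against 4.42. Absence of reference signal was thus read per 60-base probe, not per gene.

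The Cy3 differences of both probes of a pair are set side by side for all 8 pairs. Against the oocyte group, Z00065115-1 stood at -2.20 in SN and at -1.72 in NSN on the scale of log2 Cy3 relative to each array's 75th percentile, and Z00010188-1 at -1.998 and -1.589. Z00024302-1 stood 2.31 higher in SN and 2.27 higher in NSN, and Z00046776-1 2.18 and 2.14 higher. In these pairs both probes differed from oocyte in the same direction and by similar amounts. For Z00060087-1 the values were -3.06 and -3.11, and for its partner -3.16 and -2.90. The 2 pairs within the set gave 1.01 for Z00060462-1 beside 1.31 for Z00024379-1, and 0.81 for Z00050778-1 beside 0.97 for Z00060416-1, in SN against oocyte. The remaining pairs were less alike. In SN against oocyte, Z00008997-1 stood at 1.19 and Z00065702-1 at -0.19, and in NSN at 1.07 and 0.35; the partner was above background in Cy3 on 5 arrays. Z00076584-1 stood at 0.05 and Z00022701-1 at -0.24 in SN, and at 0.50 and 0.48 in NSN. Z00042554-1 stood at -0.71 and -0.21, and its partner Z00050020-1 was above background in Cy3 on 0 arrays, so that pair gives no comparison. Members of such a pair are not independent measurements of the set.

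The Cy3-only probes were not the brightest oocyte probes of the array. Ranked by mean log2 Cy3 intensity over all 42006 probes, the brightest of them, Z00018699-1, stood at place 2239, the median at 14576.5 and the last at 20009. Among the 20457 probes above background in Cy3 on all arrays, none of the first 2000 places was held by a probe without Cy5 signal on any array. Such probes made up 0.167% of places 2001 to 5000, 0.82% of places 5001 to 10000, 2.44% of places 10001 to 15000 and 4.76% of the remaining places, to 20457. The share of probes with Cy5 above background on all 6 arrays went the other way, from 99.9% of the first 1000 places to 88.1% of the last range. Only 25 of the 300 (8.33%) exceeded the array's 75th percentile of log2 Cy3 intensity on every array, and 174 lay below it on every array. The rule used these levels, so they are given as a description with no test.

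The absence of reference signal likewise rests on the rule. After subtraction of the local background, the median Cy5 intensity of the 300 probes was 13.5 and 15.02 units on the oocyte arrays and between 8.74 and 10.8 on the SN and NSN arrays, whereas the median of the probes above background in both channels lay between 1391 and 1999. The oocyte arrays were thus the higher ones in Cy5, the denominator of the ratios used below, and the part of this shift in those ratios was not tested. In 54 of the 300 the scanner software had replaced the Cy5 signal with a substitute value on all 6 arrays. The Cy3 intensity over background had a median of 104 and 65.1 on the oocyte arrays, 242 and 254 for SN, with 268 and 274 for NSN. The oocyte arrays were thus read at lower Cy3 intensity before any scaling, and the probes above background in both channels showed the same order, with medians of 227 and 155 against 804 to 936. At the lower limit of the set, the mean log2 Cy3 intensity was 7.85 for Z00047391-1, 7.84 for Z00008997-1 and 7.84 for Z00025368-1 just inside it. It was 7.83 for Z00053489-1, 7.82 for Z00062570-1 and 7.82 for Z00032394-1 just outside.

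The level of the set by array was as follows. The median log2 Cy3 processed intensity of the 300 probes was 10.27 and 9.63 in the oocyte pools, 9.38 and 9.73 in SN, and 9.69 and 9.55 in NSN. The first oocyte pool was the highest of the 6, and the other oocyte pool lay within the range of the SN and NSN pools. Over all probes the first oocyte pool was the highest as well, with a median of 7.80 beside 7.40 to 7.60 in the others. Relative to each array's 75th percentile the medians were -1.15 and -1.55 in oocyte, -1.88 and -1.68 in SN, and -1.53 and -1.66 in NSN. On that scale both oocyte pools were above both SN pools, while the NSN pools overlapped with oocyte. The medians over all probes also put oocyte above SN, at -3.63 and -3.71 against -3.75 and -3.81, with -3.78 and -3.81 in NSN. Whether the set departs from this shift of the whole array was not tested. Individual probes spanned a wide range in every pool, from 6.81 to 16.29 in the first oocyte pool and from 5.86 to 15.76 in the NSN pool of 44 oocytes. In pooled cells, fewer cells with a transcript and less of it per cell cannot be told apart.

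Agreement between the 2 pools of a group was weaker for these probes than for probes with signal in both channels. The median absolute difference of log2 Cy3 intensity between the pools, relative to the 75th percentile, was 0.45 in oocyte, 0.42 in SN and 0.36 in NSN. For the 19308 probes with both signals it was 0.23, 0.23 and 0.21. The pools differed at least 2-fold for 53 Cy3-only probes (17.7%) in oocyte, 48 (16%) in SN and 32 (10.7%) in NSN, against 5.03%, 4.16% and 4.94% of the probes with both signals. Among the 100 brightest the counts were 15, 9 and 6, and among the 100 dimmest 17, 25 and 16. These probes are also dimmer than those with both signals, and the part of brightness in the difference was not tested. Between the 2 scan files of an SN or NSN array, the median absolute difference in Cy3 about that array's median shift was between 0.028 and 0.034, and 0 of the 300 departed 2-fold from the shift. The shift itself was largest for SN replicate 2, at 0.07.

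The 10 brightest probes were high in all 3 groups. Z00018699-1 had a log2 Cy3 intensity of 15.23 and 14.51 in oocyte, 15.71 and 15.89 in SN, and 15.66 and 15.76 in NSN, with the oocyte pools below the other 4. Z00076627-1 showed the opposite order, with 16.29 and 15.68 in oocyte, 14.33 and 14.46 in SN, and 14.43 and 14.52 in NSN. Z00008446-1 had 15.43 and 14.92 in oocyte, 12.91 and 14.17 in SN, and 13.67 and 13.83 in NSN. Thus the leading probes did not share one pattern over the groups. Z00027462-1 was also highest in oocyte, at 15.80 and 14.85, with 13.67 and 13.40 in SN and 13.87 and 13.03 in NSN. Z00031470-1 had 13.35 and 12.76 in oocyte, 13.35 and 13.88 in SN, and 13.85 and 14.01 in NSN, so both NSN pools were above both oocyte pools. Z00024831-1 ranged from 12.72 in SN replicate 2 to 13.36 in oocyte replicate 1. The remaining 4 of the 10 lay between 13.06 and 14.74 in every pool. By limma, 4 of the 10 passed the threshold in SN against oocyte on the main scale described next, beside 61.7% of all probes tested. In NSN against oocyte 4 of the 10 passed as well, beside 60.7%. Under all 5 scalings 0 of the 10 were called in the same direction. Over all probes tested, that rule called 19.9% higher and 7.56% lower in SN, and 18.9% and 7.84% in NSN.

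SN oocytes were first compared with the oocyte group, to ask which Cy3-only probes differ between these pools. The main measure was the log2 ratio of Cy3 over Cy5, normalised within each array by loess, a smooth fit of the ratio on intensity. It was tested with limma on all 6 arrays, two-sided, and p-values were adjusted by Benjamini and Hochberg's method over 29047 probes, with 0.05 as the threshold. All 300 Cy3-only probes were tested, since the rule had required Cy3 signal on every array. On that scale 160 of them (53.3%) were called, fewer by share than the 61.7% of all probes tested. Of these, 116 (38.7%) were higher in SN, against a background of 26.3%, and 44 (14.7%) were lower, against 35.3%. The median difference was 0.49, beside -0.09 over all probes tested. Those probes needed Cy3 signal on only 2 arrays, unlike the 300. Over the probes with Cy3 signal on every array the median was -0.30. Without oocyte replicate 1 the median of the 300 was 0.78, beside -0.07 over all probes, and without oocyte replicate 2 it was 0.29, beside -0.11. The ranking mean that chose the probes holds 4 SN and NSN arrays and 2 oocyte arrays, so the direction against oocyte is not fully independent of the choice.

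The split between higher and lower calls depended on the scale, and it turned with Cy3 alone. Relative to the array's 75th percentile, Cy3 alone gave 63 higher (21%, background 26.8%) and 110 lower (36.7%, background 36.2%), with a median of -0.70 beside -0.33 over all probes. After quantile normalisation of Cy3, 60 were higher (20%, background 26.9%) and 132 lower (44%, background 33.4%), with a median of -0.50 beside -0.09. The deposited log ratio gave nearly even counts, 74 higher (24.7%, background 29.2%) and 70 lower (23.3%, background 30.9%), with medians of -0.10 and -0.04. Median centring of the ratio in place of loess kept a majority of higher calls, 109 (36.3%, background 45.3%) against 33 lower (11%, background 8.44%), but the median of 0.39 was below the 0.45 of all probes. Of the 5 scalings, loess was the only one in which the share called higher exceeded the background. By the rule the Cy5 signal of these probes was not marked well above background, so the denominator of their ratios is a weak signal. Its median over the local background was 8.74 to 15.02 units, depending on the array. In 122 of the 300 the sign of the difference changed between the 5 scalings, in 97 it was positive in all of them and in 81 negative in all.

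Counted only where limma called a probe in the same direction under all 5 scalings, 51 (17%) were higher in SN than in oocyte and 32 (10.7%) were lower. The background for the same rule was 19.9% higher and 7.56% lower over all probes tested, so both shares are near it. The 51 probes had a median log2 Cy3 intensity of 8.73 and 8.28 on the oocyte arrays, 10.87 and 11.19 for SN, with 11.14 and 10.83 for NSN. The 32 probes had 11.72 and 11.60 on the oocyte arrays, 7.98 and 8.33 for SN, with 8.35 and 8.15 for NSN. The remaining 217 lay at 10.43 and 9.80 in oocyte, 9.29 and 9.61 in SN, and 9.60 and 9.46 in NSN. Among the 217, differences in Cy3 relative to the 75th percentile still ranged from -3.07 to 2.67. The hexamer AATAAA was present in 12 of the 51 (23.5%), 2 of the 32 (6.25%) and 21 of the 217 (9.68%), and the median G+C content was 36.7%, 37.5% and 38.3%. These groups were formed from the calls, and the differences in sequence between them were not tested. The count of lower probes moved when oocyte replicate 1 or SN replicate 1 was left out, which leaves a group with 1 array.

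Z00063167-1 was the most strongly raised. Its log2 Cy3 intensity was 9.57 and 8.74 in oocyte, 13.37 and 13.93 in SN, and 13.82 and 13.48 in NSN. Every SN and NSN pool exceeded both oocyte pools by a wide margin. On the loess scale the difference of SN from oocyte was 5.53 (SE 0.27, limma adjusted p = 2.92e-05), and it ranged from 3.32 to 5.86 over the settings run. Z00059346-1 had 8.73 and 7.94 in oocyte, 12.21 and 12.83 in SN, and 12.40 and 12.57 in NSN. Its loess difference was 5.04 (SE 0.29, limma adjusted p = 4.46e-05), ranging from 2.83 to 5.40. Neither group of pools overlapped with oocyte for either probe.

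Z00075871-1 was the most strongly lowered. It was at 13.40 and 13.08 in oocyte and at 6.84 and 6.25 in SN, with 6.88 and 6.88 in NSN. In SN and NSN it was thus near the lower end of the set, whose minimum was 5.84 on the array of SN replicate 2, while in the oocyte pools it was among its brighter probes. The loess difference of SN from oocyte was -4.86 (SE 0.28, limma adjusted p = 4.41e-05) and ranged from -6.73 to -2.73 over the settings. Z00029123-1 was at 13.77 and 12.88 in oocyte, 8.92 and 9.47 in SN, and 9.29 and 8.62 in NSN. Its difference was -3.40 (SE 0.53, limma adjusted p = 0.00189) and ranged from -4.17 to -1.73. For both probes the oocyte pools were higher than all 4 SN and NSN pools.

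NSN oocytes were compared with the oocyte group in the same fit, and this comparison shares its oocyte arrays with the one above, so the likeness of both is not a separate result. On the loess scale 161 Cy3-only probes (53.7%) were called, against 60.7% of all probes. Higher in NSN were 122 (40.7%, background 25.4%) and lower 39 (13%, background 35.3%), with a median difference of 0.62 beside -0.11 over all probes. Over the probes with Cy3 signal on every array, as the 300 have, the median was -0.31. Without oocyte replicate 1 the median of the 300 was 0.84, beside -0.09 over all probes, and without oocyte replicate 2 it was 0.38, beside -0.12. The split again turned with Cy3 alone, which gave 67 higher (22.3%, background 26.2%) and 101 lower (33.7%, background 35.4%) relative to the 75th percentile. After quantile normalisation 62 were higher (20.7%, background 25.9%) and 123 lower (41%, background 32.3%). The deposited log ratio gave 72 higher (24%, background 28.5%) and 67 lower (22.3%, background 30.4%). Median centring gave 110 higher (36.7%, background 40.5%) and 32 lower (10.7%, background 8.84%). As for SN, the share called higher exceeded the background with loess alone of the 5 scalings, and these counts share the oocyte arrays. The sign changed between scalings in 114 probes, and was positive in all 5 for 106 and negative in all 5 for 80.

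Under all 5 scalings, 52 probes (17.3%) were called higher in NSN than in oocyte, beside 18.9% of all probes, and 29 (9.67%) lower, beside 7.84%. The 52 had median log2 Cy3 intensities of 8.68 and 8.18 in oocyte and of 10.97 and 10.80 in NSN. The 29 had 12.10 and 11.73 in oocyte and 8.54 and 8.16 in NSN. AATAAA was present in 12 (23.1%) and 3 (10.3%) of these, and in 20 (9.13%) of the other 219. These groups were formed from calls that share the oocyte arrays with those for SN, so the shares are not a separate result. The differences in sequence were not tested. The count of lower probes moved when oocyte replicate 1 or NSN replicate 2 was left out, which leaves a group with 1 array. Z00063167-1 differed by 5.78 (SE 0.27, limma adjusted p = 2.97e-05) and Z00059346-1 by 5.24 (SE 0.29, limma adjusted p = 4.56e-05) on the loess scale. Z00075871-1 differed by -4.79 (SE 0.28, limma adjusted p = 5.26e-05) and Z00029123-1 by -3.58 (SE 0.53, limma adjusted p = 0.00159). The probe upstream of Dusp13, Z00066401-1, stood 1.88 higher in NSN on the loess scale (SE 0.16, limma adjusted p = 0.000169) and was called higher under all 5 scalings, with 0.81 after quantile normalisation as the smallest. In SN it stood 1.58 higher (SE 0.16, limma adjusted p = 0.000285), but the call was lost with the deposited log ratio (1.15, limma adjusted p = 0.103), and quantile normalisation gave 0.59.

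NSN was compared with SN, the pools that the series' design text describes, on the 4 arrays of slide 3. None of the 300 Cy3-only probes was called by limma at an adjusted p under 0.05 (0 of 300), and neither was any of the 28431 probes tested (0%). An unadjusted p under 0.05 was found for 17 of the 300 (5.67%), and for 10.9% of all probes. The count of called members was also 0 under each alternative setting run. With 2 pools a group, an absence of calls does not show that levels were equal.

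Differences between NSN and SN, which share a slide, were small next to those from oocyte. The oocyte pools were smaller and on other slides, which cannot be told apart from group. For NSN against SN, the median over the 300 probes was 0.08 on the loess scale, with the middle 50% of probes between -0.13 and 0.32. The extremes were -0.93 and 1.12. With the other scan file the median was 0.32. Both NSN pools lay outside the range of both SN pools for 77 probes (25.7%), 58 of them higher in NSN and 19 lower, whereas 44.4% of all probes did not overlap. A difference of at least 2-fold without overlap was seen for 4 probes higher in NSN (1.33%, background 0.222%) and for 0 lower (0%, background 2.36%). Those counts moved with the setting, as listed in the closing section, and are no more than a description. Leaving out a replicate leaves a group with 1 array, which makes non-overlap easier to meet. Counts without a replicate therefore do not compare with those of the full fit. The sign of the difference changed between scalings in 122 probes, was positive in all 5 for 102 and negative in all 5 for 76.

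Z00030186-1 had the largest positive difference. Its log2 Cy3 intensity was 7.77 and 7.61 for the SN pools, 9.44 and 8.87 for the NSN pools and 7.67 and 6.93 for oocyte, so the NSN pools stood above the other 4. The loess difference of NSN from SN was 1.12 (95% interval 0.52 to 1.72, limma adjusted p = 0.257), positive in every setting, between 0.73 and 1.59. Z00044932-1 had SN values of 8.03 and 9.49 beside NSN values of 9.75 and 9.87, and its oocyte values were 10.19 and 11.08. Its SN pools lay further apart from each other than the higher one lay from NSN. The difference was 1.095 (95% interval 0.01 to 2.19, limma adjusted p = 0.456).

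In the other direction, Z00062680-1 had SN values of 10.63 and 10.07 beside NSN values of 9.40 and 9.27, and its oocyte values were 11.27 and 10.06. Its loess difference was -0.90 (95% interval -1.46 to -0.34, limma adjusted p = 0.301). Z00025475-1 had SN values of 10.61 and 10.79 beside NSN values of 10.26 and 9.64, and its oocyte values were 12.52 and 11.80, and it differed by -0.74 (95% interval -1.53 to 0.05, limma adjusted p = 0.484). Both probes were lower in NSN than in either SN pool, without passing the threshold.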

How the data were processed

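Each array has a scanner file made by the authors with Agilent Feature Extraction 9.5.1.1, per the file headers. The deposited values are spot intensity and local background in each channel, a processed intensity that the software had background-subtracted and dye-normalised, and the log10 of the ratio Cy5 to Cy3, also per the file headers. The authors' processed table holds 25030 probes on a log10 scale, since its columns followed the log10 Cy3 intensity (r from 0.9938 to 0.9977); 36.5% to 41.3% of its values were below the floor of 2 that the labels name, and they were raised to it here. How its probes were chosen, and its centring, stay unknown.

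Of 2 scan files of an array, the one of larger total signal was used. Log2 ratios were computed from these intensities with limma 3.58.1 in R 4.3.3 (normexp background correction, offset 50, loess within arrays, control spots at weight 0). A probe was tested where Cy3 was well above background on at least 2 arrays of the fit. The fits were tested on simulated data. Arrays held 22011 to 29780 probes above background in Cy3 and 28668 to 29984 in Cy5. No dyes were swapped, so a dye effect is part of every ratio; the mean Cy3 intensity was 1417 and 2110 on the oocyte arrays and 4719 to 5361 on the others, and whether a dye effect cancels between them was not tested. The number of arrays limits the precision.

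The set of probes, the gene lists and the rule for named probes were chosen with earlier results of these data known. The rule names the 10 brightest probes, the called probes of largest difference in each direction (or, with none called, those whose arrays do not overlap) and those at the limit of the set. It allowed 3 per direction and was held to 2, since no gene names were at hand. The gene lists and the search for genes by protein sequence were not used here. Added after seeing the data were the promoter match, the count over 5 scalings and the sequence comparisons with sets other than those planned. Alternatives tried were the offset, scaling, scan file, filter on dim probes, authors' table, slide or replicate number as a block, the arrays in the fit, each replicate left out, and the ranking rule. Replicate numbers were treated as names only: the correlation of deviations of same-numbered pools was -0.02 for oocyte and SN, 0.15 for oocyte and NSN, and 0.21 for SN and NSN.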

Additional observations from a re-analysis of the deposited data

How the results depend on the processing

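The direction against the oocyte group was the result that depended most on the processing. For SN against oocyte, the deposited log ratio gave 74 higher and 70 lower with a median of -0.10, Cy3 alone at the 75th percentile 63 and 110 with -0.70, and Cy3 alone after quantile normalisation 60 and 132 with -0.50. The authors' table, which holds 180 of the 300 probes, gave 40 higher of 80 called, with a median of -0.12. For NSN against oocyte the same settings gave 72 and 67 with -0.0535, 67 and 101 with -0.48, 62 and 123 with -0.41, and 41 of 79 with -0.17; an offset of 16 gave 60 lower. For the authors' table, the offset of 16 and the fits without one replicate given below, the share called over all probes was not counted. Whether those counts differ from the array as a whole was therefore not tested. Each fit without one replicate leaves a group with 1 array. The authors' table also tested only 180 of the 300, so its counts do not compare directly with the others. The cause of this dependence on the processing was not tested. Leaving out each replicate in turn gave 24 to 71 lower in SN and 22 to 57 in NSN, and under all 5 scalings 18 to 34 and 14 to 34. The counts of higher calls under all 5 scalings stayed between 37 and 51 in SN and between 38 and 55 in NSN.

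For NSN against SN, 0 probes were called in every setting run. Probes at least 2-fold apart without overlap numbered 12 higher and 4 lower with the deposited log ratio, and 10 higher with Cy3 alone at the 75th percentile. There were 0 higher with median centring and 0 with quantile normalisation, 8 higher with the other scan, 1 lower with an offset of 16 and 2 lower with the authors' table. Without one replicate they numbered 4 to 13 higher and 1 to 9 lower. A group of 1 array makes non-overlap easier to meet, so the counts without one replicate do not compare with the others. For all these alternative settings the share over all probes was not counted. Whether the counts moved with the array as a whole was therefore not tested. The median difference was 0.32 with the other scan and -0.06 with median centring.

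With the replicate block, 117 higher and 48 lower were called in SN, 127 and 45 in NSN, and 0 between NSN and SN, so no count moved by over 1.5 times. With slide as a random block the counts were 112 and 43, and 121 and 39. The oocyte arrays share no slide with SN or NSN, so this block could not take a slide effect out of those differences. For both block settings the share called over all probes was not counted. The differences of the 8 probes named for their size kept their direction in every setting that held them. Their arrays did not overlap between the groups compared, so leaving out a replicate could not turn the sign. The probes were chosen for large differences, so this is a description only. Z00063167-1 and Z00029123-1 have no value in the authors' table. Other ways of choosing the set shared between 235 and 300 probes with it, and 261 to 291 without one replicate; sets of the top 100 and 200 share 100 and 200 by construction. The counts over 5 scalings were added after seeing the data. Precision is limited by 2 arrays a group and by Cy5 signals not well above background, which are the denominator of these ratios.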
